A study of Mus musculus with 6 samples.

Results

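Cadherins are calcium-dependent adhesion proteins of the cell surface, and protocadherins are the largest branch of the same superfamily. The genes described here are those in the deposited count tables whose symbols start with Cdh or Pcdh followed by a digit, or by letters of the a, b and g protocadherin clusters and a digit, and that reached 50 unique molecular identifiers (UMIs, counted RNA molecules) summed over 6 libraries. Genes with Cdhr symbols were not taken. Of 86 such symbols, 81 reached the limit, among 32285 genes in the tables and 19067 genes with at least 50 UMIs. They are 4 type I cadherins (Cdh1, Cdh2, Cdh3 and Cdh4), 12 type II cadherins, 3 other cadherins (Cdh13, Cdh16 and Cdh23), 11 protocadherins outside the clusters, and 51 clustered protocadherins: 12 Pcdha, 21 Pcdhb and 18 Pcdhg genes. Cdh5 with 65 UMIs and Pcdha8 with 72 lay just inside the limit. Cdh15 with 39 UMIs, Cdh17 with 18, Pcdh12 with 16, Cdh26 with 6 and Pcdhb1 with 5 lay outside it.

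Type I and type II cadherins bind the same or related cadherins on the neighbouring cell and are tied to the actin skeleton through catenins. In the retina, combinations of type II cadherins mark neuron types and take part in the choice of synaptic partners and layers. Protocadherins outside the clusters act in adhesion and axon outgrowth, while the clustered protocadherins are drawn in different combinations by different neurons and serve the recognition of a cell's own branches. Pcdh15 and Cdh23 form the tip links of inner-ear hair cells, and mutations in either cause Usher syndrome, in which deafness goes with photoreceptor loss.

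Retinas of wild-type C57BL6/J mice were profiled by single-nucleus RNA sequencing with 10x Genomics 3′ chemistry, version 3.1. There were 3 libraries from mice 3 months old (3mo) and 3 from mice 18 months old (18mo). The series title concerns fatty acid supplementation, but the labels give no treatment for any of these 6 libraries. The labels do not say whether replicates came from separate animals or from pools, so p-values measure the spread between these libraries, which may be technical.

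The libraries held 15905689 to 29340705 UMIs in 6488 to 16528 barcodes, and 5027 to 14083 nuclei per library passed the filters, 50241 in all. Library pairs shared 11 to 74 barcodes, at most 0.506% of the smaller library. Nuclei were clustered without any Cdh or Pcdh gene, and 28 of 44 clusters, with 25493 nuclei, were given a class from marker genes. A class name below means like that class, since the names were rebuilt here. The remaining 24748 nuclei stayed unnamed, and 10770 of them were in 18mo replicate 3, where 12789 nuclei passed the filters. This library stands apart from the others, and the age differences that rest on it are also given without it. Clusters 2 and 3, with weak rod markers, were left unnamed and held 11.7% and 7.24% of the 3mo nuclei and 6.64% and 6.47% of the 18mo nuclei. Cluster 11, with weak rod bipolar markers, held 3.65% and 2.13%. Other unnamed clusters were larger at 18mo. Cluster 4, with rod bipolar markers beside those of other classes, held 1.64% and 8.51%, and 2521 of its 3056 nuclei were from 18mo replicate 2. Clusters 0 and 5, with too few markers, held 0.541% and 0.214% of the 3mo nuclei and 21.6% and 9.25% of the 18mo nuclei. Most nuclei of both were from 18mo replicate 3. The 8 classes tested ran from 701 rod bipolar to 7488 ganglion cell nuclei, with 41385 to 8596842 UMIs per class and library. Replicate 1 of each age was processed with Cell Ranger release 7.1.0 and the other 4 libraries with release 7.2.0, per the file headers. UMIs of all 12 rod markers were found in every class, and whether they came from free RNA, remaining doublets or mixed clusters was not tested. They stood at a sum of 2703 to 8192 CPM (a gene's UMIs scaled to a common total over all UMIs of the class in that library) in retinal ganglion cells against 25419 to 85937 CPM in rods. Ganglion cells were the lowest class. In cones the sum was 13131 to 31493 CPM, which overlapped the rods, and in cone bipolar cells it was 7427 to 21717 CPM.

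The family took 0.667% to 0.947% of all UMIs per library, and all 81 genes were detected in every library. The 11 protocadherins outside the clusters held 70.5% of the family's UMIs, led by Pcdh9 with 360002 UMIs, Pcdh15 with 185536 and Pcdh7 with 108023. Type II cadherins held 20%, led by Cdh18 with 102840 UMIs. The 51 clustered genes together held 27646 UMIs, 2.77%. UMI totals of unspliced nuclear RNA grow with gene length. Per kb of gene span, mean levels in cones were 6.11 CPM for Pcdh15 and 3.98 CPM for Cdh18. In retinal ganglion cells they were 9.90 CPM per kb for Pcdh8, 6.23 for Pcdh9 and 3.88 for Pcdh7. Per kb, Cdh2 led the genes outside the Pcdhb cluster in Müller glia with 3.83 CPM, and Pcdh9 led all genes of the family in cone bipolar cells with 6.24 and in horizontal cells with 5.22. The Pcdhb genes, which have spans of a few kb, reached levels per kb close to these, for example 4.24 CPM for Pcdhb17 in Müller glia.

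The first comparison set each of 8 cell classes against the mean of the other 7, over counts summed per library and class, with the library as a block. A gene was called at an edgeR adjusted p of at most 0.05 and a log2 difference of at least 1. The filter on low counts left 27 of the 81 genes, 21 of the 30 outside the clusters and 6 of the 51 clustered ones, among 10935 genes tested. A gene that passed the filter only through a class where it is high had to differ, so counts of calls describe these 27 genes and not the family. The 54 genes that did not pass had 65 to 1185 UMIs in all: 45 clustered genes and Cdh1, Cdh3, Cdh5, Cdh16, Cdh19, Cdh23, Cdh24, Pcdh18 and Pcdh20. Of the 27, 26 were called in at least 1 class, and 21 were called higher in at least 1. Among those 21, 4 were higher in 1 class, 12 in 2 classes, 4 in 3 and 1, Cdh10, in 4. The share of all 10935 genes called in at least 1 class was not worked out. These counts over classes thus have no background and do not set the 27 genes apart from other genes.

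Rods and cones were low in most of the genes, and amacrine and ganglion cells were high. In rods 1 gene was called higher (16.1% of all genes tested were) and 21 lower (18.2%). In cones 2 were called higher (8.27%) and 17 lower (16.2%). Amacrine cells had 12 genes called higher (11%) and 1 lower (4.03%), and retinal ganglion cells 11 higher (13.5%) and 2 lower (9.83%). Cone bipolar cells had 7 called higher (5.83%) and 2 lower (1.62%), whereas rod bipolar cells had 1 higher (6.09%) and 4 lower (3.74%). Horizontal cells had 4 higher (8.05%) and 10 lower (8.45%), and Müller glia 6 higher (10.1%) and 3 lower (2.54%). The median log2 difference of the 27 genes was −1.55 in rods and −1.17 in cones, where all genes tested had medians of 0.09 and −0.01. It was 0.91 in amacrine cells, 0.84 in ganglion cells and 0.57 in cone bipolar cells, where the medians of all genes lay between −0.05 and −0.03.

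**Figure D1:**
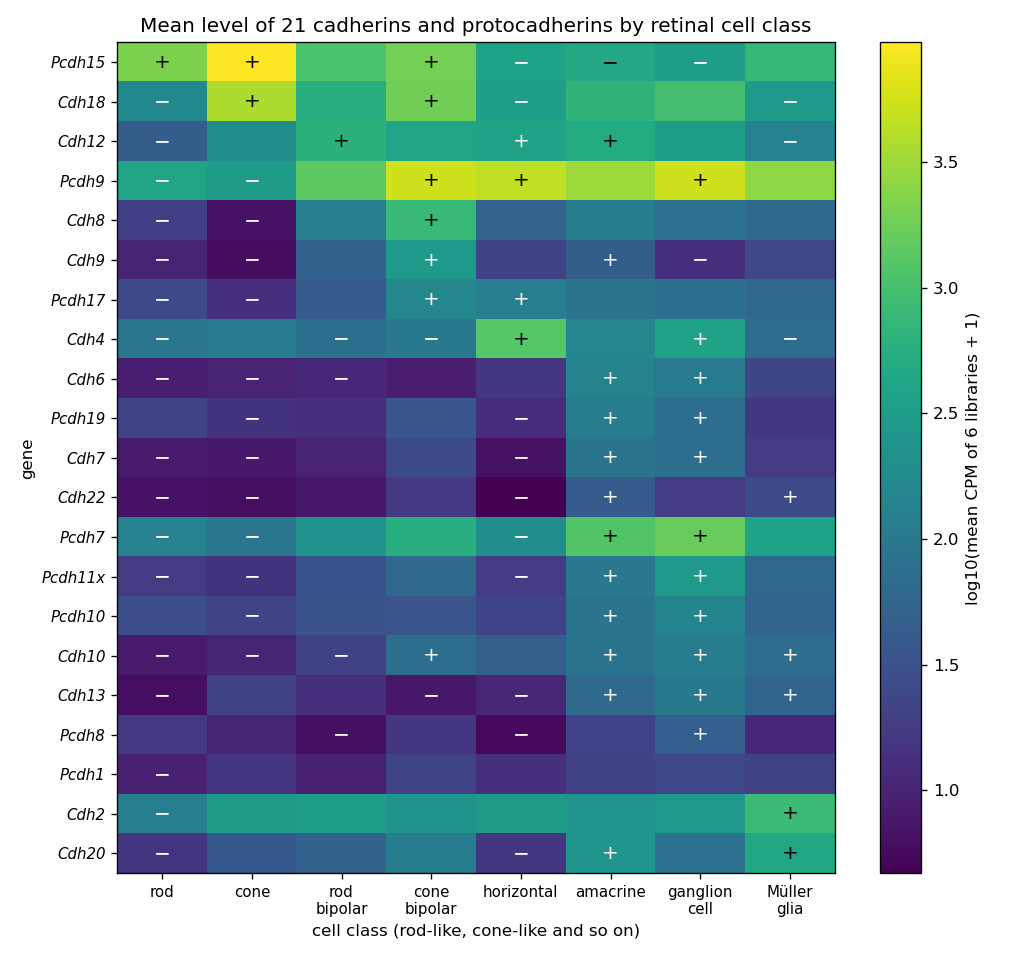
Mean level of 21 cadherin and protocadherin genes in 8 retinal cell classes over 6 libraries, as log10(CPM + 1) in colour, with + for a gene called higher and − for one called lower than the mean of the other classes (edgeR, adjusted p at most 0.05 and log2 difference at least 1). Of the 21 genes drawn, 17 carry a − sign in rods and 12 a + sign in amacrine cells.

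Cones were marked by Pcdh15 and Cdh18. Pcdh15, the Usher protocadherin, which in photoreceptors lies at the base of the outer segment, measured 11045, 9030.1 and 6419 CPM in the 3mo libraries and 11901, 9542 and 8855 CPM in the 18mo libraries in cones. Every cone library lay above every library of the other 7 classes, with a mean of 9465 ± 1912 CPM (SD, n = 6) and a log2 difference of 3.73 (SE 0.22, edgeR adjusted p = 4.27e-20). Cdh18, a type II cadherin, measured 3867, 3867 and 2619 CPM in the 3mo libraries and 4794, 3868 and 3099 CPM in the 18mo libraries in cones, with a mean of 3686 ± 749.6 CPM (SD, n = 6) and a log2 difference of 2.88 (SE 0.17, edgeR adjusted p = 8.28e-20). The cone libraries again lay above all others. The next class was cone bipolar cells, at 1838 ± 459.9 CPM (SD, n = 6). Rods were at the other end for Cdh18, with 161 ± 182 CPM (SD, n = 6) and a log2 difference of −2.78 (SE 0.27, edgeR adjusted p = 1.29e-12). The cones of the release 7.1.0 libraries and those of the other 4 libraries fell almost wholly into different clusters, cluster 16 and cluster 15, and the highest Pcdh15 levels were those of the release 7.1.0 libraries.

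Pcdh15 was also called higher in rods and in cone bipolar cells, whose libraries overlapped. In cone bipolar cells it averaged 1903 ± 390.3 CPM (SD, n = 6), with a log2 difference of 1.09 (SE 0.26, edgeR adjusted p = 0.00156). In rods it was not one level. It measured 2749.5, 279 and 446 CPM in the 3mo libraries and 3237, 2606 and 3239.6 CPM in the 18mo libraries, so 3mo replicates 2 and 3 were far below the other 4 libraries. The log2 difference of 1.04 (SE 0.26, edgeR adjusted p = 0.000521) over the other classes fell below a log2 of 1 in 9 of the alternatives run, among them 0.88 without 3mo replicate 1, 0.74 without 18mo replicate 1 and 0.86 without 18mo replicate 2. The rods fell into 3 clusters that the libraries held in different shares. Cluster 7, whose leading genes include Cnga1, Rom1, Pdc and Prph2, held 90.0% and 65.6% of the rods of 3mo replicates 2 and 3 and at most 1.998% of those of any other library. Cluster 1 held 4495 of the 7048 rod nuclei and passed the naming rule narrowly. It had 7 of 12 rod markers over the limit, the strongest at a log2 fold of 1.82. Cluster 7 had 12 of 12 and 3.54, cluster 25 had 4 of 12 and 2.05, and the unnamed cluster 2 had 12 of 12 and 1.59. Within cluster 1, present in all libraries, Pcdh15 measured 2399.6, 2196 and 1645 CPM at 3mo and 2719, 2664 and 3205 CPM at 18mo. Within cluster 7 it measured 144 and 141 CPM in 3mo replicates 2 and 3 and 652 CPM in 18mo replicate 2, the 3 libraries with at least 10 nuclei there. Rod marker levels moved with this: the 12 rod markers summed to 85937 and 85077 CPM in the rods of 3mo replicates 2 and 3 and to 25419 to 38534 CPM in the other 4 libraries.

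The partner of Pcdh15 in the tip link, Cdh23, was rare in all 8 classes. Its mean was at most 12.8 CPM, that of Müller glia, and 4.77 ± 8.35 CPM (SD, n = 6) in rods and 3.31 ± 5.79 CPM (SD, n = 6) in cones. In microglia, a class outside the tests, it reached 95.8 ± 83.4 CPM (SD, n = 6) from 37 UMIs. Its total moved with the Cell Ranger release. The 2 libraries of release 7.1.0 held 219 and 194 of its 559 UMIs and the other 4 held 14 to 61, a ratio of 6.47 in CPM of whole libraries. Of the 81 genes, 21 (25.9%) were higher in both libraries of release 7.1.0 than in all 4 others and 3 (3.7%) were lower, beside 38% and 16.6% of all 19067 genes. The release cannot be told apart from anything else that both first replicates share.

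Cone bipolar cells were marked by the type II cadherins Cdh8 and Cdh9, both of which are known to steer bipolar axons to their layer in the inner retina. Cdh8 measured 764, 884 and 762 CPM in the 3mo libraries and 514, 1045 and 749 CPM in the 18mo libraries in cone bipolar cells, with a mean of 786 ± 175 CPM (SD, n = 6) and a log2 difference of 4.12 (SE 0.19, edgeR adjusted p = 1.04e-23). Cdh9 measured 173, 395 and 252 CPM in the 3mo libraries and 283, 381 and 169 CPM in the 18mo libraries, with a mean of 276 ± 97.8 CPM (SD, n = 6) and a log2 difference of 4.23 (SE 0.23, edgeR adjusted p = 2.12e-21). For both genes every cone bipolar library lay above every library of the other classes. In cones the same genes were at 5.77 ± 3.96 CPM (SD, n = 6) and 4.97 ± 4.98 CPM (SD, n = 6), and both were called lower there. Pcdh17 reached 158 ± 29.7 CPM (SD, n = 6) in cone bipolar cells, with a log2 difference of 1.752 (SE 0.18, edgeR adjusted p = 1.33e-11), and the horizontal cells, at 122 ± 32.98 CPM (SD, n = 6), overlapped them.

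Rod bipolar cells, which carry the rod signal, did not share Cdh8 and Cdh9 at these levels. They had 119.8 ± 64.95 CPM (SD, n = 6) of Cdh8 and 47 ± 39.1 CPM (SD, n = 6) of Cdh9. Their 1 gene called higher was the type II cadherin Cdh12, at 585, 771 and 541 CPM in the 3mo libraries and 561, 680.1 and 610.3 CPM in the 18mo libraries, with a log2 difference of 1.601 (SE 0.18, edgeR adjusted p = 1.7e-10). The rod bipolar libraries overlapped those of amacrine cells, at 491 ± 89.1 CPM (SD, n = 6). Rods had the lowest Cdh12, 43.2 ± 57.1 CPM (SD, n = 6).

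A finer clustering of all nuclei named 1050 cone bipolar nuclei, where the clustering used above named 919. It split them into 2 groups. One was high in Grik1, a kainate receptor subunit of OFF bipolar cells, and one in Grm6, the metabotropic receptor of ON bipolar cells. Grik1 averaged 3810 CPM in the first group of 550 nuclei and 357 CPM in the second of 500, and Grm6 averaged 21.96 and 193 CPM. Isl1, a further bipolar marker, averaged 27.6 and 253 CPM. Vsx1, a cone bipolar marker, did not separate the groups. It averaged 32.1 CPM in the Grik1 group and 49.4 CPM in the Grm6 group, with overlapping libraries. In the Grik1 group Cdh8 measured 1252, 1218 and 747 CPM at 3mo and 1084, 1374 and 564 CPM at 18mo. In the Grm6 group it measured 232, 499 and 479 CPM at 3mo and 185, 451 and 0 CPM at 18mo, where the 0 came from 10 nuclei of 18mo replicate 3. Cdh9 ran the other way, with 30.9, 57.7 and 117 CPM at 3mo and 65.7, 80.8 and 62.7 CPM at 18mo in the Grik1 group. In the Grm6 group Cdh9 measured 289.8, 751 and 639 CPM at 3mo and 399, 745 and 783 CPM at 18mo. The libraries of the 2 groups did not overlap for either gene. Cdh18, Pcdh9, Pcdh15 and Pcdh17 overlapped between the groups: Pcdh9, for example, averaged 5207 ± 949 and 5367 ± 1311 CPM (SD, n = 6). The groups come from clusters of the same nuclei, so these values are a description without a test.

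**Figure D2:**
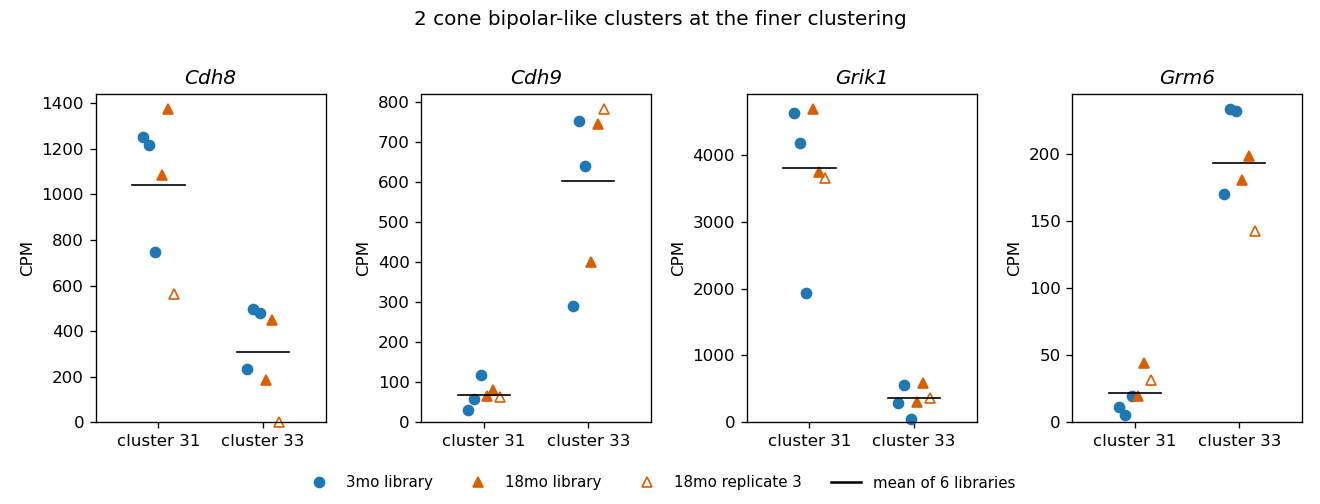
Levels of Cdh8, Cdh9, Grik1 and Grm6 (CPM) in the 2 cone bipolar clusters of the finer clustering, with 1 point per library and the mean as a bar. The points of the Grik1 group lie above those of the Grm6 group for Cdh8 (564 to 1374 against 0 to 499 CPM) and below them for Cdh9 (30.9 to 117 against 289.8 to 783 CPM). In the Grm6 group 18mo replicate 3 has 10 nuclei.

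Horizontal cells were marked by Cdh4, also called R-cadherin for its discovery in retina. It measured 1904, 988 and 919 CPM in the 3mo libraries and 2236, 904 and 749 CPM in the 18mo libraries, with a mean of 1283 ± 623 CPM (SD, n = 6) and a log2 difference of 3.81 (SE 0.15, edgeR adjusted p = 1.52e-28). Both libraries of release 7.1.0 were high, and all 6 horizontal libraries still lay above every library of the other classes. Retinal ganglion cells came next, at 489, 308 and 261 CPM in the 3mo libraries and 537, 377 and 249.9 CPM in the 18mo libraries, with a log2 difference of 1.69 (SE 0.16, edgeR adjusted p = 1.32e-13), and there too the release 7.1.0 libraries were the highest at each age. In Müller glia, the lowest class, Cdh4 was at 68.5 ± 42.7 CPM (SD, n = 6). Horizontal cells also held Pcdh9 at 4483, 5034 and 4715 CPM in the 3mo libraries and 4116, 4649.9 and 4495 CPM in the 18mo libraries, with a log2 difference of 1.88 (SE 0.20, edgeR adjusted p = 2.48e-11). This narrow range lay above every library of amacrine cells, Müller glia, rod bipolar cells, rods and cones.

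Pcdh9, the most abundant gene of the family and one of the protocadherins outside the clusters, was highest in cone bipolar, ganglion and horizontal cells and lowest in photoreceptors. Its order was cone bipolar cells with 5476 ± 897 CPM (SD, n = 6), ganglion cells with 5462 ± 966 CPM (SD, n = 6) and horizontal cells, whose ranges overlapped. Amacrine cells followed without overlap at 3065 ± 240 CPM (SD, n = 6), then Müller glia at 2596 ± 709 CPM (SD, n = 6) and rod bipolar cells at 1389.7 ± 524 CPM (SD, n = 6). Each of these 3 classes overlapped the next in the order, rods after rod bipolar cells included. Rods, at 393 ± 438 CPM (SD, n = 6), and cones, at 309.9 ± 378 CPM (SD, n = 6), were last, with log2 differences of −2.96 and −3.55. The photoreceptor values rest in part on 18mo replicate 3, which measured 1268 CPM in rods and 1077 CPM in cones, where the other libraries reached at most 307 and 219 CPM. Without that library the means were 218 CPM in rods and 156 CPM in cones.

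**Figure D3:**
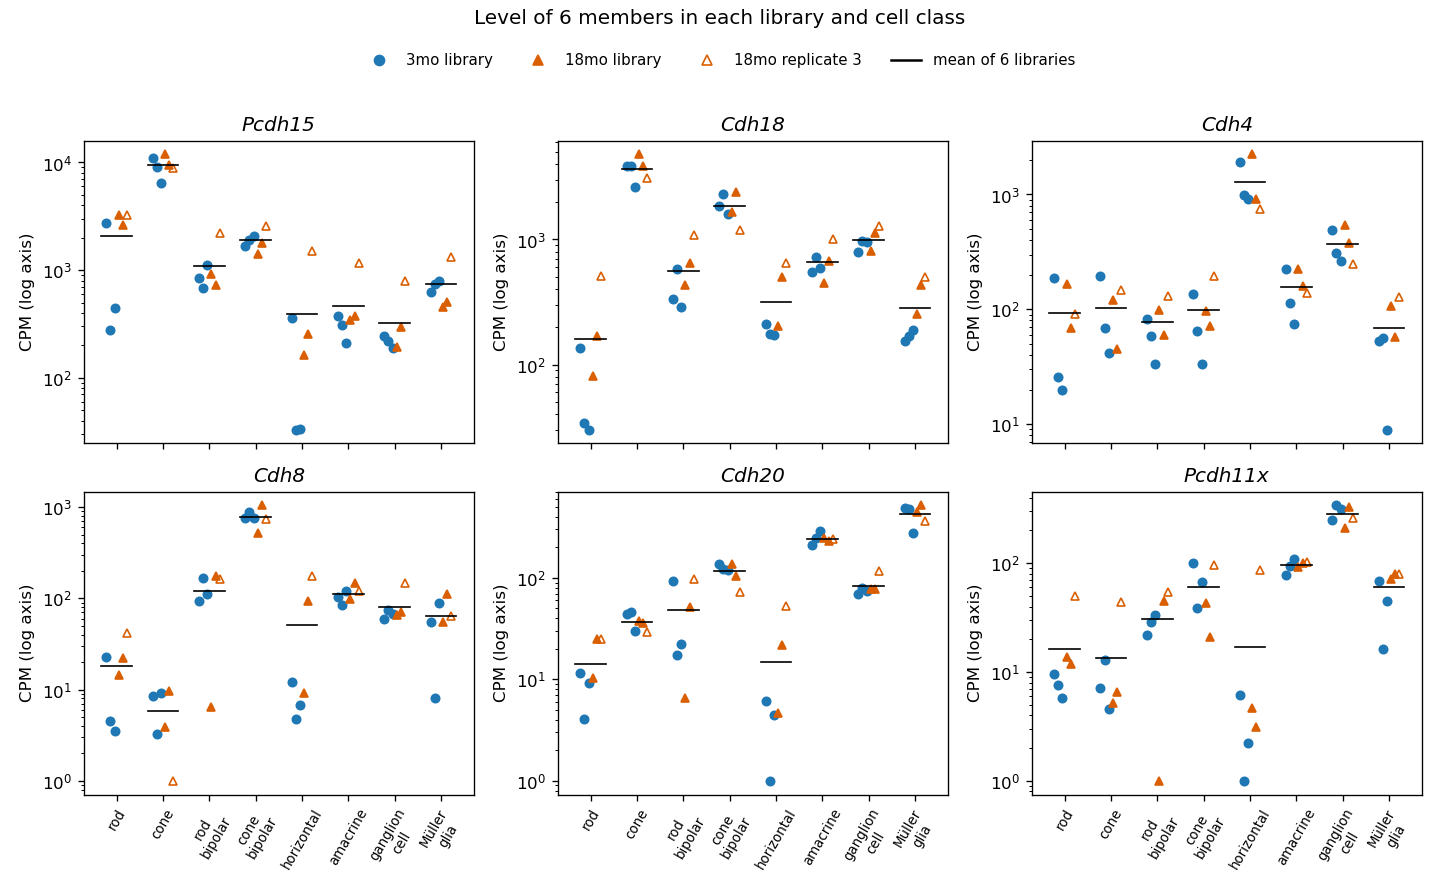
Level of Pcdh15, Cdh18, Cdh4, Cdh8, Cdh20 and Pcdh11x by cell class (CPM, log axis, values of 0 drawn at 1), with 1 point per library and a bar at the mean. Open triangles mark 18mo replicate 3. Each panel has 1 or 2 classes that stand above the rest: cones for Pcdh15 (6419 to 11901 CPM) and Cdh18, horizontal cells for Cdh4, cone bipolar cells for Cdh8, Müller glia and amacrine cells for Cdh20, and ganglion cells for Pcdh11x.

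Cdh6, Cdh7, Cdh10, Cdh13, Pcdh7, Pcdh10, Pcdh11x and Pcdh19 were called higher both in amacrine cells and in ganglion cells, in comparisons that share the other classes. Ganglion cells were set apart by Pcdh11x, an X-linked protocadherin, at 251, 339.9 and 315 CPM in the 3mo libraries and 211, 329.8 and 259 CPM in the 18mo libraries. Their mean was 285 ± 51.3 CPM (SD, n = 6), with a log2 difference of 3.47 (SE 0.18, edgeR adjusted p = 8.12e-23), and amacrine cells came next at 96.2 ± 10.9 CPM (SD, n = 6) without overlap. Amacrine cells led in Pcdh19, the protocadherin mutated in an X-linked epilepsy, at 111, 132 and 132 CPM in the 3mo libraries and 121, 105 and 90.9 CPM in the 18mo libraries. The mean was 116 ± 16.2 CPM (SD, n = 6), with a log2 difference of 2.65 (SE 0.17, edgeR adjusted p = 1.52e-18), above every library of every other class, ganglion cells included, at 71.4 ± 10.3 CPM (SD, n = 6).

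Pcdh7 was high in both classes. It measured 1022, 1108 and 914 CPM in the 3mo libraries and 1224, 1478 and 1496 CPM in the 18mo libraries in amacrine cells, with a log2 difference of 2.28 (SE 0.19, edgeR adjusted p = 1.52e-14), and 1370, 1847 and 1696 CPM in the 3mo libraries and 1349.6, 1877 and 1535 CPM in the 18mo libraries in ganglion cells, with a log2 difference of 3.00 (SE 0.19, edgeR adjusted p = 1.09e-19). The ranges of these 2 classes overlapped, and the amacrine libraries lay above those of the 6 others. Cdh6, a type II cadherin known from direction-selective circuits, measured 98.7, 111 and 119 CPM in the 3mo libraries and 77.2, 117 and 101 CPM in the 18mo libraries in ganglion cells, with a log2 difference of 3.04 (SE 0.19, edgeR adjusted p = 1.36e-19). Amacrine cells, at 142 ± 44.7 CPM (SD, n = 6), overlapped them, and Müller glia followed at 22.1 ± 12.9 CPM (SD, n = 6) without overlap. Cdh13, the cadherin anchored by a lipid and lacking a cytoplasmic tail, measured 100.4 ± 30.1 CPM (SD, n = 6) in ganglion cells, 63.8 ± 14.3 CPM (SD, n = 6) in amacrine cells and 53.97 ± 38.2 CPM (SD, n = 6) in Müller glia, which overlapped. All 3 were called higher, and rods, at 5.13 ± 4.08 CPM (SD, n = 6), were called lower.

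Within these 2 classes the genes divided further among clusters, given here as a description since the clusters come from the same nuclei. Cdh6 in ganglion cells averaged 481 CPM in cluster 20, led by Bnc2 and Tafa1, against 165 CPM in the next cluster and 6.97 CPM in cluster 26, led by Foxp2. In amacrine cells Cdh6 averaged 485 CPM in cluster 19, whose leading genes include the starburst markers Chat and Slc5a7, and 154 CPM in the next. In both classes the highest cluster's libraries lay above those of all 5 others. Pcdh7 averaged 3771 CPM in ganglion cell cluster 8 and 3146 CPM in amacrine cluster 17, and the next clusters were at 1665 and 1503 CPM. Cdh18 averaged 1937 CPM in ganglion cell cluster 14, led by Tbx20, and 110.1 CPM in cluster 26. The same cluster 14 held Pcdh9 at 11428 CPM and cluster 12 held it at 1465 CPM. Cluster 12 in turn held the highest Cdh13, 218 CPM, and cluster 26 the highest Pcdh10, 397 CPM.

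In amacrine cells, cluster 29, led by Olfm3 and Robo1, averaged 805 CPM of Cdh20 and 1043 CPM of Cdh12, both clear of the 5 other clusters. Cluster 10, led by Tlr4 and Kcnq5, was highest in Pcdh11x, at 189 CPM, and in Cdh2, at 335 CPM, again clear of the others. The mean of Cdh9 was also highest in cluster 10, at 96.3 CPM against 30.6 CPM in the next, but not clear of the others. In the finer clustering a cluster of 933 nuclei was led by Tlr4, with Kcnq5 and the ganglion cell marker Eomes among its leading genes. That cluster was refused the amacrine name because leading genes belonged to another class. In cluster 29 Pcdh11x was at 10.6 CPM. For the 5 Pcdhb genes examined by cluster (Pcdhb14, Pcdhb16, Pcdhb17, Pcdhb19 and Pcdhb20) the highest cluster means were at most 2.63 times the lowest in amacrine cells and 2.16 times in ganglion cells. None of the 5 was clear of the other clusters. Their levels were low and varied between libraries. Pcdhb16, for example, had a mean of 24.4 CPM with an SD of 23.3 in its highest amacrine cluster. These values are too low to decide whether the Pcdhb genes divide among clusters.

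**Figure D4:**
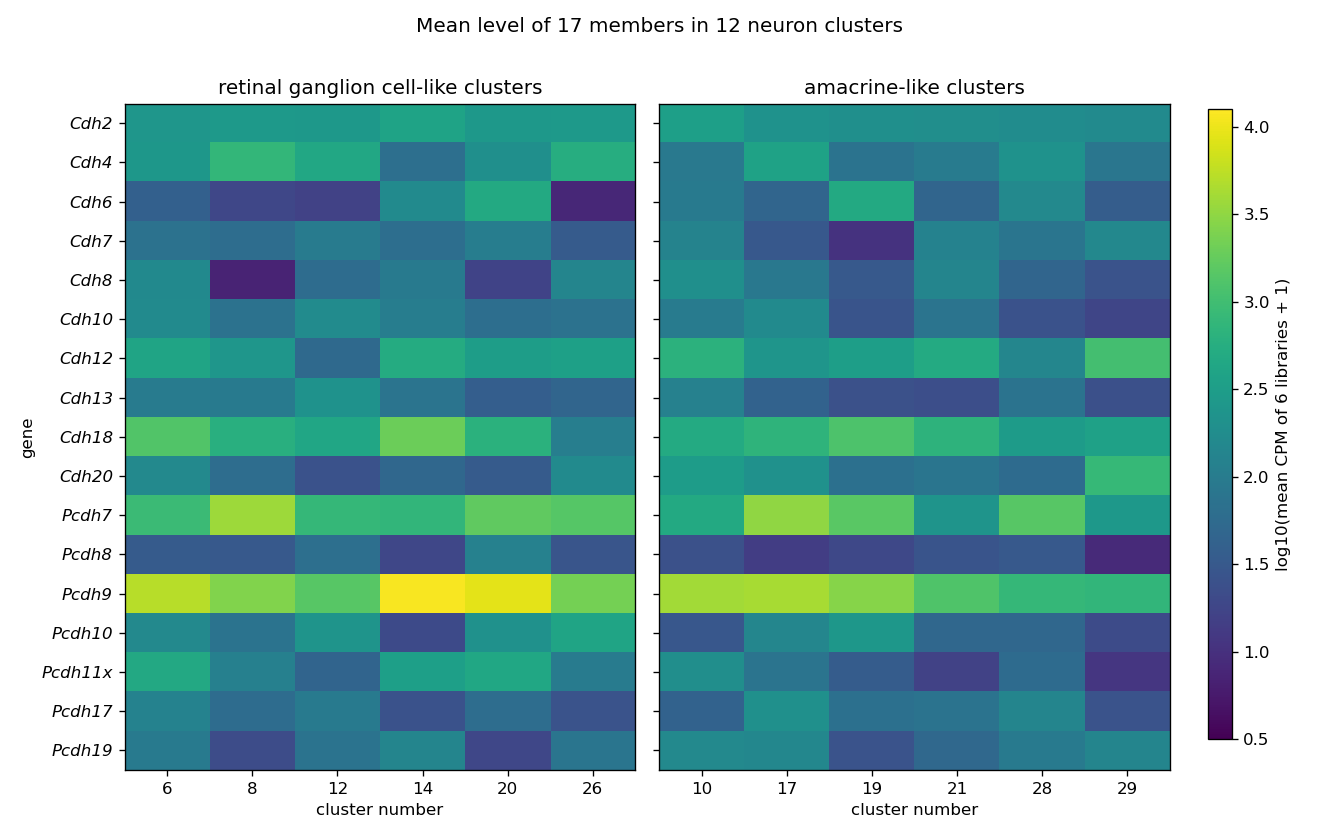
Mean level of 17 genes (log10(CPM + 1), colour) in 6 ganglion cell clusters and 6 amacrine clusters, averaged over libraries with at least 10 nuclei in the cluster. Genes peak in different clusters of a class, for example Cdh6 in ganglion cell cluster 20 (481 CPM) and amacrine cluster 19 (485 CPM), and Cdh20 in amacrine cluster 29 (805 CPM).

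Müller glia, the radial glia that span the retina, were marked by Cdh2 and Cdh20. Cdh2 is N-cadherin, a component of the junctions that Müller glia form with photoreceptors at the outer limiting membrane. It measured 997, 797 and 698 CPM in the 3mo libraries and 1008, 840.3 and 727 CPM in the 18mo libraries, with a mean of 845 ± 132 CPM (SD, n = 6) and a log2 difference of 1.69 (SE 0.11, edgeR adjusted p = 1.53e-19). Every Müller library lay above all others. The 6 classes from rod bipolar cells, at 324 ± 63.3 CPM (SD, n = 6), to cone bipolar cells, at 238 ± 44.96 CPM (SD, n = 6), overlapped their neighbours in the order. Rods were last at 121 ± 41.2 CPM (SD, n = 6), with a log2 difference of −1.48 (SE 0.14, edgeR adjusted p = 1.82e-13), and every rod library lay below every library of the other classes. Cdh20, a type II cadherin, measured 489, 475 and 278 CPM in the 3mo libraries and 449, 518 and 364 CPM in the 18mo libraries in Müller glia, with a log2 difference of 3.05 (SE 0.17, edgeR adjusted p = 1.15e-21). Amacrine cells overlapped them at 209, 247 and 289 CPM in the 3mo libraries and 247, 229.7 and 239.8 CPM in the 18mo libraries, with a log2 difference of 2.17 (SE 0.16, edgeR adjusted p = 1.48e-16), and lay above the 6 remaining classes. Rods and horizontal cells had 14.1 ± 8.67 CPM (SD, n = 6) and 14.9 ± 19.9 CPM (SD, n = 6).

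Cadherins best known from vessels and pigment epithelium had few UMIs here and were not tested. Cdh5, the endothelial VE-cadherin, had 26 UMIs in 428 vascular nuclei, a mean of 47.3 ± 33.8 CPM (SD, n = 6), and at most 2 UMIs in any of the 8 classes. Cdh3, the P-cadherin of the pigment epithelium, had 29 UMIs in 44 pigment epithelium nuclei, which came from 4 of the libraries, a mean of 281 ± 168 CPM (SD, n = 4). In the 8 classes Cdh3 had at most 13 UMIs. Cdh19 had 104 UMIs in Müller glia, a mean of 37.3 ± 27.7 CPM (SD, n = 6), and at most 10 UMIs in any of the other 7 classes.

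The clustered protocadherins were low one by one, so they were summed by cluster. All 12 Pcdha and all 18 Pcdhg gene models overlap others of their cluster on the same strand, because each joins its own first exon to shared last exons, whereas 2 of 21 Pcdhb models do. Splitting of reads among overlapping genes is not given in the sources used here, so single Pcdha and Pcdhg values are uncertain. Pcdha genes together measured 40.9, 33.7 and 31.3 CPM at 3mo and 44.5, 43.3 and 20.1 CPM at 18mo in ganglion cells. In rods they measured 3.83, 4.55 and 9.29 CPM at 3mo and 4.15, 5.23 and 8.29 CPM at 18mo, and in Müller glia 0 to 13.7 CPM, below every ganglion cell library. Amacrine cells, at 16.0 to 44.1 CPM, also lay above both. The Pcdhb sum was 72.6 ± 22.4 CPM in rods and 66.9 ± 43.7 CPM in cones (SD, n = 6), and between 128 and 187 CPM on average in the 6 other classes. Pcdhg means ran from 40.5 CPM in horizontal cells to 84.0 CPM in rod bipolar cells, and the libraries of a single class spread as widely. In rods the sum measured 76.6, 23.3 and 27.9 CPM at 3mo and 83.6, 68.9 and 16.6 CPM at 18mo, highest in both release 7.1.0 libraries. These sums were not tested. Of the single clustered genes, Pcdhb14, Pcdhb16, Pcdhb17 and Pcdhb19 were called lower in rods and in cones, and Pcdhb14 was called higher in Müller glia, at 27.2 ± 14.9 CPM (SD, n = 6).

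Genes that work with the family were examined as lists. Of all pairs of gene and class tested, 9.87% were called higher and 8.08% lower, which is the background for the counts of pairs in these lists. All 14 catenins and other cytoplasmic partners of classical cadherins were tested, with 22 calls higher and 18 lower over the 8 classes. Ctnna2, a neuronal alpha-catenin, averaged 4702 ± 720 CPM (SD, n = 6) in horizontal cells, with a log2 difference of 3.72 (SE 0.17, edgeR adjusted p = 2.2e-25). Ctnnd2, a neuronal catenin of the delta kind, averaged 89.9 ± 151 CPM in cones and 1604 ± 168 CPM in amacrine cells (SD, n = 6), with a log2 difference of −3.73 in cones (SE 0.33, edgeR adjusted p = 7.28e-14). Of 19 other members of the superfamily 7 were tested, with 12 calls higher and 11 lower. Clstn2, a calsyntenin, averaged 596 ± 77.3 CPM in ganglion cells, and Fat4, a giant cadherin, averaged 113 ± 35.8 CPM in cone bipolar cells (SD, n = 6), with log2 differences of 3.96 and 3.79.

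Of 12 cytoplasmic effectors of protocadherins 11 were tested, with 4 calls higher and 5 lower. Ret, a receptor kinase that pairs with clustered protocadherins, averaged 105 ± 35.4 CPM in horizontal cells (SD, n = 6), with a log2 difference of 3.72, and the kinase gene Fyn was lower in rods by a log2 difference of −2.21. Of 10 proteases that shed and cut cadherins, 7 were tested and 1 was called, Psenen in rods, with a log2 difference of 1.08. Of 12 genes that act in promoter choice at the clustered protocadherins, 11 were tested and 0 were called in any class by edgeR. At an unadjusted p under 0.05 with the same limit on size 0 passed too, and DESeq2 called 0. Of 13 Usher partners of Pcdh15 and Cdh23, 3 passed the filter, with 7 calls higher and 7 lower. All 3 were called higher in rods (16.1% of all genes were) and 2 in cones (8.27%), while 2 each were called lower in horizontal (8.45%), amacrine (4.03%) and ganglion cells (9.83%). Adgrv1, an adhesion receptor of that group, averaged 625 ± 407 CPM in rods and 649 ± 59.1 CPM in Müller glia (SD, n = 6).

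The second comparison set the 18mo against the 3mo libraries within each class. Across the 8 classes 58 of the 81 genes passed the filter in at least 1 class and 7 in all 8 (Cdh2, Cdh4, Cdh12, Cdh18, Pcdh7, Pcdh9 and Pcdh15), giving 163 pairs of gene and class. With age as the only term edgeR called 0 of them, in a background of 0% of all genes in every class, and DESeq2 called 0 as well, beside 0.155% of all genes in rods, 0.259% in horizontal cells, 0.187% in Müller glia and 0% elsewhere. At an unadjusted p under 0.05 there were 3 of 19 genes in rods, 2 of 9 in cones, 0 of 8 in rod bipolar cells, 0 of 15 in cone bipolar cells, 2 of 9 in horizontal cells, 1 of 32 in amacrine cells, 1 of 56 in ganglion cells and 3 of 15 in Müller glia. The shares of all genes at that limit were 8.25% in rods, 1.22% in cones, 0.986% in rod bipolar cells, 1.87% in cone bipolar cells, 5.37% in horizontal cells, 1.85% in amacrine cells, 1.8% in ganglion cells and 5.09% in Müller glia. In simulated counts with the amacrine libraries' means and sizes, 38 of 100 genes changed 2-fold and 92 of 100 changed 4-fold were called. Every simulated gene had the same spread, with no release or cluster differences, so these shares do not carry over to the real libraries. The lists of partner genes had 0 calls by edgeR with age alone, 14 of 380 pairs at an unadjusted p under 0.05, beside 3.29% of all pairs of gene and class, and 2 by DESeq2, beside 0.062%.

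With the Cell Ranger release as a second term, 1 pair was called, Cdh18 in Müller glia, beside 2.68% of all genes tested in that class. In the other classes 0 genes of the family were called in that fit, beside 0.00967% of all genes in rods, 0.139% in cone bipolar cells, 0.111% in horizontal cells and 0% in the rest. Cdh18 in Müller glia measured 155, 169 and 188 CPM at 3mo and 252, 429 and 503 CPM at 18mo, without overlap. The log2 difference was 1.05 (SE 0.25, edgeR adjusted p = 0.0193), and with age alone it was 1.16 (SE 0.33, edgeR adjusted p = 0.391). With the replicate number as a block the log2 difference was 1.04 (SE 0.24, edgeR adjusted p = 0.0149), beside 2.89% of all genes. The labels give no pairing by number, and the block also takes up the release, so this fit is not independent of the release fit. With that block 0 genes of the family were called in cone bipolar cells, beside 0.0926% of all genes, and 0 in the 6 other classes, beside 0%. Leaving out single libraries in the release fit gave adjusted p values from 0.00342, without 18mo replicate 3, to 0.257, without 3mo replicate 3. The call was lost without any of the 3mo libraries or 18mo replicate 1. In Müller glia the 12 rod markers summed to 15746 to 20229 CPM at 3mo and 5543 to 11388 CPM at 18mo, without overlap, and all 12 had UMIs. The 12 cone markers summed to 662 to 833 CPM at 3mo and 353 to 840 CPM at 18mo, and all 12 had UMIs. The 16 ganglion cell markers summed to 559 to 725 CPM at 3mo and to 761, 582 and 1278 CPM in 18mo replicates 1, 2 and 3. Their part in the Cdh18 difference was not tested. Ctnna2 was the 1 partner gene called in that fit, also in Müller glia, with a log2 difference of 1.05 (edgeR adjusted p = 0.0228).

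For Cdh18 the log2 age difference with age alone was 1.73 in rods, 1.08 in horizontal cells, 0.78 in rod bipolar cells and between −0.14 and 0.20 in cones, cone bipolar cells, amacrine cells and ganglion cells, none of them called. Without 18mo replicate 3 it was 0.80 in rods and 0.79 in horizontal cells. It was called in rods without 3mo replicate 1, at 2.37 (edgeR adjusted p = 0.0262), and in horizontal cells without 18mo replicate 1, at 1.38 (edgeR adjusted p = 0.0311). In horizontal cells it measured 213, 176 and 173 CPM in the 3mo libraries and 203, 501 and 649 CPM in the 18mo libraries, where the highest 3mo library was above 18mo replicate 1. Whether the age difference itself differs between classes was not tested.

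Rods had the highest median age difference of the 8 classes, and it moved with the libraries and clusters taken. Of 19 genes tested in rods, 16 had a positive log2 difference, with a median of 1.05 where all genes had 0.02, but 0 were called. Rod markers in these rods were lower at 18mo without overlap, with sums of 38534 to 85937 CPM at 3mo and 25419 to 34877 CPM at 18mo. The 16 Müller glia markers summed to 982 to 1035 CPM in rods at 3mo and to 822, 1923 and 1657 CPM in 18mo replicates 1, 2 and 3, and all 16 had UMIs. Their part in the differences was not tested. Pcdh9 measured 282, 117 and 95.2 CPM in the 3mo libraries and 289.6, 307 and 1268 CPM in the 18mo libraries in rods, with a log2 difference of 1.69 (SE 0.68, edgeR adjusted p = 0.487), and the groups did not overlap by a narrow margin, with 18mo replicate 3 far above the rest. Its log2 difference was 0.67 without that library and 2.02 without 3mo replicate 1, where it was called (edgeR adjusted p = 0.0366). Pcdh15, whose rod values by library are given above, had a log2 difference of 1.28 (SE 0.77, edgeR adjusted p = 0.492). Among the 4 release 7.2.0 libraries 11 of 24 genes were called, beside 35.4% of all genes. Without 3mo replicate 1, 7 of 26 were called, beside 29.4% of all genes. Rods of cluster 1, which passed the naming rule narrowly, leave out the cluster that held most rods of 3mo replicates 2 and 3. Within them 0 of 6 genes were called by edgeR (0% of all genes). Of the 6 genes, 1 had an unadjusted p under 0.05, and the Pcdh15 log2 difference was 0.41. With clusters 2 and 3 of weak rod markers added, 0 of 40 genes were called and the median was 0.18. Without 18mo replicate 3 the rod median was 0.49.

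Müller glia had the next highest median. There 13 of 15 genes had a positive log2 difference, with a median of 0.60 beside −0.02 over all genes. In the 6 remaining classes the medians were 0.10 in cones, 0.21 in rod bipolar cells, 0.05 in cone bipolar cells, −0.05 in horizontal cells, 0.01 in amacrine cells and 0.02 in ganglion cells. In horizontal cells Pcdh7 measured 51.7, 42.4 and 71.9 CPM in the 3mo libraries and 64.7, 106 and 864 CPM in the 18mo libraries, and its log2 difference of 2.37 was 0.51 without 18mo replicate 3. Without 18mo replicate 1, Cdh18 and Cdh8 were called in horizontal cells, beside 1.43% of all genes. Pcdh15 there measured 1508 CPM in 18mo replicate 3 and at most 359 CPM in the others, and its log2 difference of 2.03 was 0.53 without that library and 3.94 without 3mo replicate 1, not called in any of these. In the horizontal cells of 18mo replicate 3 the 16 ganglion cell markers summed to 1193 CPM, against 333 to 575 CPM in the other 5 libraries, and the 12 cone markers to 854 CPM against 231 to 715 CPM. The part of these in the differences was not tested.

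**Figure D5:**
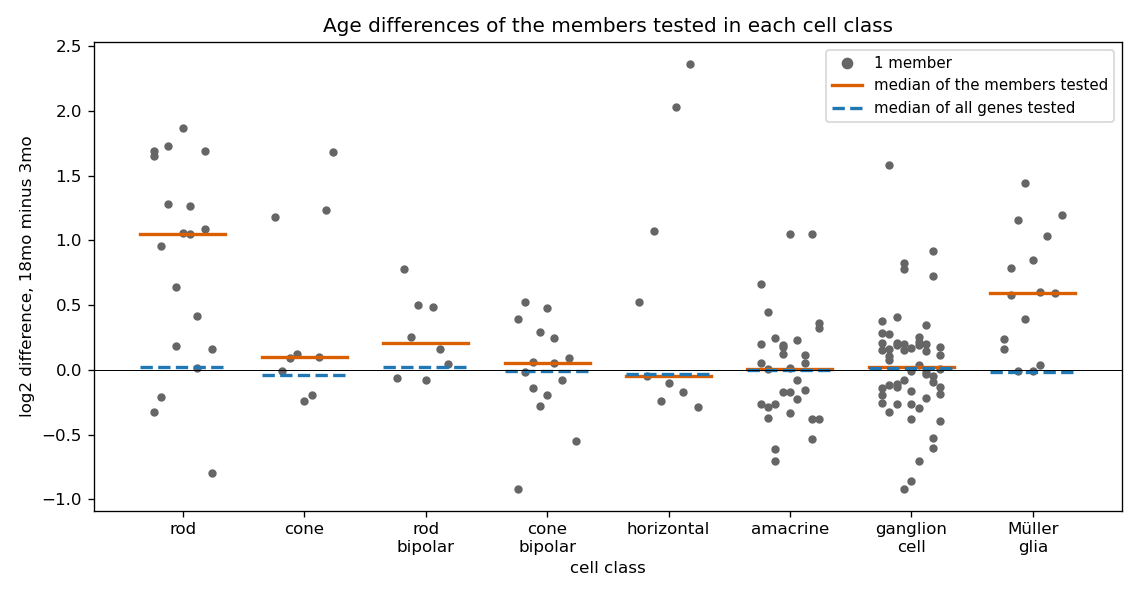
Log2 difference of 18mo over 3mo (age as the only term) for each gene of the family tested in each of 8 classes, 1 point per gene, with the median of these genes as an orange bar and the median of all genes tested as a dashed blue bar. Points are spread around 0 in most classes, the medians of the family are 1.05 in rods and 0.60 in Müller glia, and 0 points pass an adjusted p of 0.05.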

How the data were processed

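The authors deposited 1 filtered count matrix per library, with whole-number UMI counts per gene and barcode. Cell Ranger 7.1.0 (replicate 1 of each age) or 7.2.0 (the 4 other libraries) made them, per the file headers, and the submitters' processing notes name Seurat and mm10. The intron setting of the counting is not given in the sources used here. No matrix column went unmapped.

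Barcodes with at least 500 UMIs and 300 genes and at most 5% mitochondrial UMIs were kept, the mitochondrial limit removing 1.12% to 41.9% of a library's barcodes. A doublet caller marked at most 1 nucleus per library, so it did not work here, and instead the nuclei with the highest doublet scores were removed, 4.19% to 12.9% of a library. Nuclei were clustered with scanpy 1.11.5 (1988 variable genes without Cdh and Pcdh genes, 30 principal components, 15 neighbours, Leiden resolution 1). A cluster was named for a class when at least 3 of its markers and 25% of them were over a log2 fold of 1, and when its strongest marker passed a log2 fold of 1.75. The share of markers over the limit also had to be at least 2 times that of the next unrelated class. Clusters were refused where an unrelated class had more markers among the leading genes. Clusters of low depth without an own marker among the leading genes were refused too. That naming rule was settled after the clusters had been seen, and the genes of the family, the gene lists and the tests were chosen with earlier results of these data known. Raw counts were summed per library and class, with at least 20 nuclei in every library, and tested with edgeR 4.0.16 (quasi-likelihood, TMM, filterByExpr, Benjamini-Hochberg over all genes tested in the class). The class fit had the library as a block, and the age fit had age as its only term. DESeq2 1.42.0 and the settings of the closing section were alternatives. On simulated data the age fit called 38 of 100 genes changed 2-fold and 95 of 100 changed 4-fold in ganglion cells, with 5 false calls. Those counts too had the same spread for every gene and no release differences. Gene spans are those of the reference annotation supplied for mm10.

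Named genes were up to 3 per class, called higher with the largest log2 difference, a mean of at least 20 CPM and libraries clear of all lower classes. Genes called by age, Cdh2, Pcdh9, Cdh5, Cdh13, Cdh23 and Pcdh15, and up to 2 genes per list were named too. Other genes of the family (such as Cdh12, Cdh19, Pcdh17 and the values within clusters) were picked after their values were seen. Same-numbered libraries of the 2 ages deviated together in ganglion cells and Müller glia (correlations of deviations from the age means of 0.16 to 0.65, each over 0.1). In the other classes at least 1 of the 3 pairs had a correlation under 0.1. Libraries with different numbers were not compared, and both first replicates share a Cell Ranger release, so these correlations cannot show that libraries were paired. Results for some genes are not reported here.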

Additional observations from a re-analysis of the deposited data

How the results depend on the processing

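Calls by cell class numbered 104 over all classes, with 90 to 121 as single libraries were left out and 182 without the filter on low counts. Shares of all genes called are given above for the main fit and were not worked out for the alternatives by class. The counts by class therefore show only how calls depend on the settings. As single libraries were left out, genes called higher numbered 0 to 2 in rods, 2 to 3 in cones, 1 to 3 in rod bipolar, 6 to 10 in cone bipolar, 3 to 5 in horizontal, 11 to 15 in amacrine, 11 to 14 in ganglion cells and 5 to 7 in Müller glia. Genes called lower numbered 18 to 21, 13 to 18, 1 to 4, 1 to 3, 6 to 13, 1 to 1, 2 to 3 and 2 to 3 in the same order. In rods 0 genes were called higher with RLE factors, DESeq2, the 3mo libraries alone, Leiden resolution 2 or a gate on markers in place of clusters, and 2 with the 18mo libraries alone. In rod bipolar cells 2 were called higher with RLE factors, no filter or the 3mo libraries alone and 3 at resolution 2 or with the gate, while genes called lower numbered 1 with DESeq2, 2 with the 3mo libraries alone and 0 at resolution 2 or with the gate. Without the filter 28 were called lower in cones, 4 in cone bipolar and 5 in ganglion cells, and 28 higher in amacrine cells, 37 in ganglion cells and 11 in Müller glia, more genes being tested there. Genes called lower numbered 8 in cones with the gate, 0 in cone bipolar cells with the gate or the 3mo libraries alone and 1 at resolution 2, and with the 18mo libraries alone 2 in horizontal cells and 1 in Müller glia. Of 37 single results by class under 481 alternatives, 462 kept direction and side of the threshold, 17 fell below it (9 of them Pcdh15 in rods) and 2 reversed. The reversals were those of Cdh9 in amacrine cells, whose log2 difference of 1.14 became −0.51 at resolution 2 and −1.24 with the gate. The cause was not tested.

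Calls by age, 0 with age alone, numbered 0 to 7 as single libraries were left out (0 to 7 in rods, 0 to 2 in horizontal cells, 0 in the other classes). They numbered 5 without the filter (1 in cones, 4 in horizontal cells), 2 with the gate (2 in horizontal cells), and 14 in the 4 libraries of release 7.2.0 (11 in rods, 3 in horizontal cells). In rods of those 4 libraries 11 of 24 genes of the family were called, beside 3841 of all 10863 genes tested. Without 3mo replicate 1, 7 of 26 were called in rods, beside 3408 of 11583. Counts given here without such a share are not results about the family. With the release as a term 1 was called, in Müller glia, beside 158 of all 5890 genes tested there. With single libraries left out of that fit, a setting chosen after seeing the data, up to 14 were called. In rods that fit called 11 of 21 genes of the family without 18mo replicate 1, beside 3797 of all 9995 genes tested. With the replicate block, which pairs libraries by number, 1 was called, in Müller glia, and no other call changed. Without 18mo replicate 2 and without 18mo replicate 3 the release fit called 3. The cause was not tested.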

Other observations

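Further type II cadherins and protocadherins divided the classes at lower levels, and the genes of this paragraph were chosen after their values were seen. Cdh7 measured 73.3, 92.2 and 122 CPM in the 3mo libraries and 82.7, 74.8 and 67.05 CPM in the 18mo libraries in amacrine cells, with a log2 difference of 2.81 (SE 0.18, edgeR adjusted p = 4.47e-19), and averaged 72.4 ± 12.2 CPM (SD, n = 6) in ganglion cells, which overlapped. Cdh10 was called higher in 4 classes, with the highest mean in ganglion cells, 115 ± 27.9 CPM (SD, n = 6), and 9.28 ± 17.2 CPM (SD, n = 6) in cones, where it was called lower with a log2 difference of −3.62 (SE 0.39, edgeR adjusted p = 2.85e-11). Cdh22 measured 69.96, 19.5 and 30 CPM in the 3mo libraries and 66.4, 32.5 and 32.96 CPM in the 18mo libraries in amacrine cells, so both libraries of release 7.1.0 were the highest. Over whole libraries its level in the release 7.1.0 libraries was 2.52 times that in the others, without overlap.

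Pcdh10 measured 157, 154 and 166 CPM in the 3mo libraries and 171, 132 and 93.2 CPM in the 18mo libraries in ganglion cells, with a log2 difference of 2.18 (SE 0.13, edgeR adjusted p = 1.86e-20), and averaged 87.5 ± 10.9 CPM (SD, n = 6) in amacrine cells. Pcdh8, a short gene, measured 55.8, 43.6 and 51.5 CPM in the 3mo libraries and 61.9, 21.8 and 34.9 CPM in the 18mo libraries in ganglion cells, with a log2 difference of 2.20 (SE 0.15, edgeR adjusted p = 4.29e-18), and the 2 lowest libraries were 18mo replicates 2 and 3. Cdh16, which is best known from kidney, stayed at or below 15.04 ± 9.23 CPM (SD, n = 6), the mean of cones, in all 8 classes, and Cdh24 reached 15.7 ± 8.39 CPM (SD, n = 6) in amacrine cells. Both had too few UMIs to pass the filter of the class comparison.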
